A study of Mus musculus with 4 samples.

Results

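The genes that encode receptors for glutamate, GABA, glycine and acetylcholine were measured in E12.5 midbrain of *Lmx1a-dr/dr* mutants and set against wild-type midbrain of the same stage. They were taken from the array by their symbols, as the Gria, Grik, Grin, Grm, Gabr, Gabbr, Glra, Glrb, Chrn and Chrm genes. This gave 66 genes with 141 probes, of 18322 genes that the array names. The mutant group consisted of 4 samples of total RNA from dissected midbrains of *Lmx1a-dr/dr* embryos, which are homozygous for the dreher-J point mutation of the LIM homeodomain factor *Lmx1a* on a C57Bl/6J background. Each sample was RNA of several embryos pooled together and is called replicate a, b, c or d. The paper's results describe the dissected material as mesodiencephalic tegmentum together with the retromammillary area. The control was a single pool of midbrain RNA from *Lmx1a+/+* embryos of the same age, and it was put on all 4 two-colour Agilent arrays as the common reference. Arrays are named below by the dye of the mutant RNA, which was Cy3 for a and c (the Cy3 arrays) and Cy5 for b and d (the Cy5 arrays), and pairs of values are given in that order of replicates. Every comparison below is a log2 ratio of dr/dr over the wild-type pool, set against 0, so that the spread between wild-type embryos is not part of any test.

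Transmitter receptors turn a released transmitter into a change of the receiving cell. Ionotropic receptors are ion channels built from several subunits. AMPA, kainate and NMDA receptors open cation channels to glutamate, GABA-A and glycine receptors open chloride channels, and nicotinic receptors open cation channels to acetylcholine. Metabotropic receptors (mGlu, GABA-B and muscarinic) act through G proteins. In the embryonic midbrain many of these genes are transcribed before synapses have formed, in progenitors as well as in young neurons.

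*Lmx1a* itself had log2 ratios of -0.46 and -0.39 on the Cy3 arrays and of -0.75 and -0.84 on the Cy5 arrays, and it was above background in both genotypes on every array. The dreher-J allele is a point mutation that leaves a transcript, so this probe checks the labels only in part. The dopaminergic genes *Th*, which encodes tyrosine hydroxylase, and *Nr4a2*, which encodes NURR1, averaged -0.56 and -0.75 and were the only midbrain markers called lower by the permutation test described below (2 of 8, all 8 above background). *En1* averaged -0.48 and was also below 0 on all 4 arrays (family-wise permutation p = 0.136), while 1 of the 8 markers was above 0 on all arrays. The ratios of different arrays correlated at 0.639 and 0.579 over all probes when the dye orientation was shared, and between -0.342 and -0.29 when it was opposite, after every ratio had been turned to dr/dr over wild-type. Orientation and the mutant pool on the array cannot be told apart in this part of the spread, because each pool was labelled with 1 dye only.

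No receptor gene passed the test. Each gene was represented by its probe with the highest mean intensity, and limma with a dye term called 0 of 66 receptor genes at a Benjamini-Hochberg adjusted p under 0.05, beside 0% of all 41174 probes. The permutation F2 test that the study's methods describe, rewritten here from that description and possibly different in how it shrinks variances, at a family-wise p under 0.05, also called 0 of 66 receptor genes, beside 0.267% of all probes. It stands only as an alternative to limma, because its family-wise rate was not held in earlier simulated sets. Other settings of the limma fit made calls. With the median in place of the mean spot signal it called 4 receptor genes (*Grik5* and *Chrnb2* lower, *Glrb* and *Grik2* higher), beside 7.41% of all probes, and with an intensity trend in the variance it called *Grik5* alone of the 66 genes so represented, beside 0.969% of all probes. Lesser probes called by these settings are given with the separate probes. At an unadjusted p under 0.05, limma gave 8 receptor genes that were lower in dr/dr (12.1%, against 10.4% of all named genes) and 2 that were higher (3.03%, against 7.90%). Lower on all 4 arrays were 7 receptor genes (10.6%, against 9.00% of all named genes), and higher on all 4 was 1 (1.52%, against 6.74%). The median log2 ratio was -0.018 over receptor genes and -0.004 over all named genes. Single receptor genes lay between -0.35 (*Grik5*) and 0.25 (*Glrb*), whereas all named genes spanned -1.14 to 0.86. The 95% intervals of the receptor genes had a median half-width of 0.12, and for 64 of 66 genes the whole interval lay between -0.5 and 0.5. The exceptions were *Gria1*, with an interval of -0.50 to 0.06, and *Chrnb2*, with -0.54 to -0.02. The intervals are from the fit with the dye term, so the spread between the dye orientations is not in them. That of *Grin3a* was -0.27 to 0.22, although its single arrays lay between -1.30 and 1.36. In RNA of dissected tissue, a lower RNA level in each cell and a smaller share of expressing cells cannot be told apart.

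**Figure D1:**
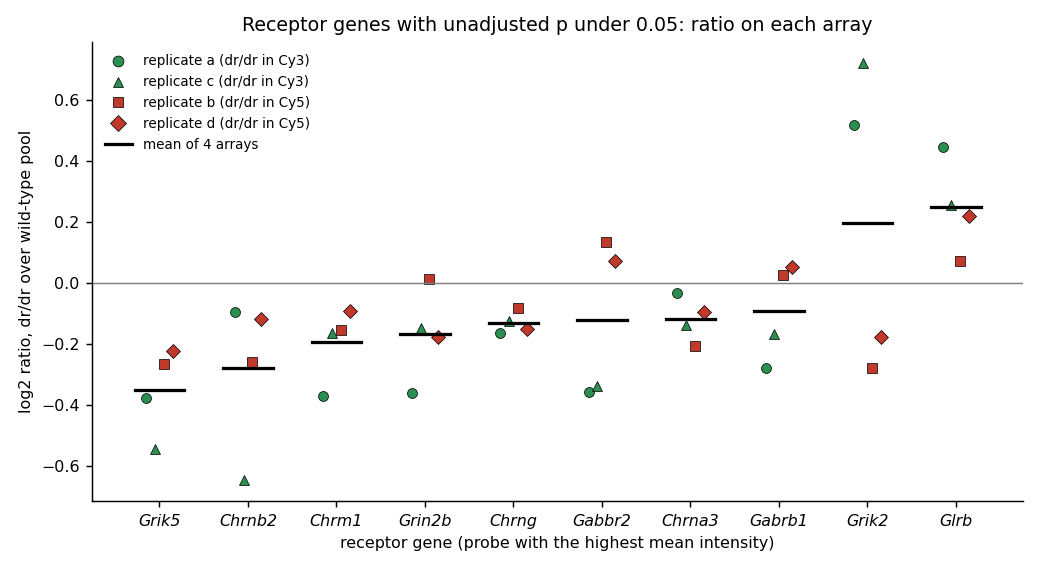
Log2 ratio of dr/dr over the wild-type pool (vertical axis) on each of the 4 arrays for the 10 receptor genes with an unadjusted limma p under 0.05. Green symbols are Cy3 arrays, red symbols Cy5 arrays, and the bar is the mean. All 4 points of *Grik5* lie between -0.54 and -0.22, while those of *Grik2*, *Gabbr2* and *Gabrb1* change sign with the dye.

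Among kainate receptors, *Grik5* stood lowest of all receptor genes. It encodes GluK5, a high-affinity subunit that forms channels only together with GluK1 to GluK3. Its log2 ratios were -0.38 and -0.54 on the Cy3 arrays and -0.26 and -0.22 on the Cy5 arrays. All 4 arrays lay below 0, and the mean of -0.35 ± 0.04 (SE, n = 4) corresponded to 78.4% of the wild-type level. The adjusted p was 0.098 in limma with Benjamini-Hochberg adjustment, and the family-wise permutation p was 0.188, so neither test called it. The gene has 1 probe on the array. At the other end was *Glrb*, which encodes the beta subunit that anchors glycine receptors to gephyrin. Its log2 ratios were 0.45 and 0.25 on the Cy3 arrays and 0.07 and 0.22 on the Cy5 arrays. This was the only receptor gene higher on all 4 arrays, with a mean of 0.25 ± 0.05 (SE, n = 4) and a limma adjusted p of 0.132. Its second probe, of lower intensity, averaged 0.08.

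The 250 bases before the RefSeq transcription start (GRCm38.p6) of these genes, the lowest and the highest of the receptor genes, are shown 5′ to 3′ on the strand of the gene, since a LIM homeodomain factor such as LMX1A binds AT-rich DNA with a TAATTA core. Capitals mark the GC box GGGCGG on either strand, and neither sequence holds TAATTA, which reads the same on both strands. *Grik5* lies at chr7:25072370-25072619 and *Glrb* at chr3:80913661-80913910, both on the minus strand.
Grik5: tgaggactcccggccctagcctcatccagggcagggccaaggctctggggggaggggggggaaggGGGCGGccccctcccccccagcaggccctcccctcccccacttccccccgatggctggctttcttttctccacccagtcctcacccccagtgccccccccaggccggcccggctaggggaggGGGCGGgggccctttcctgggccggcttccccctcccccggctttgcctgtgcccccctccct
Glrb: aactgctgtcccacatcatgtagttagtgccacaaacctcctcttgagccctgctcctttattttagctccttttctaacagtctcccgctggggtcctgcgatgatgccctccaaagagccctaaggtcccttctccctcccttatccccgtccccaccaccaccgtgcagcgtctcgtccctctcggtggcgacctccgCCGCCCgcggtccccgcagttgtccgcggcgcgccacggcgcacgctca
RefSeq promoters were matched by symbol for 51 of the 66 receptor genes, which have 59 promoters. TAATTA stood in 3 of these (5.08%; *Chrm5*, *Chrnb1* and *Gabrg1*), against 4.84% of all 32851 promoters. GGGCGG or its reverse complement stood in 28 (47.5%), against 32.7% of all promoters. These are matches of letters and not bound sites. None of the 3 genes with TAATTA had an unadjusted p under 0.05, beside 15.2% of all receptor genes and 18.3% of all named genes. With 3 genes, no difference from these shares can be seen.

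The other kainate genes showed no common direction. *Grik2*, encoding the GluK2 core subunit, had ratios of 0.52 and 0.72 on the Cy3 arrays but -0.28 and -0.18 on the Cy5 arrays. The sign thus followed the dye on all 4 arrays, and the mean of 0.20 ± 0.05 (SE, n = 4; limma adjusted p = 0.163) is a balance of opposite values. Its other probes averaged 0.05 and 0.07. *Grik1*, *Grik3* and *Grik4* averaged 0.13, -0.04 and -0.07.

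The AMPA genes *Gria1* to *Gria4* encode the 4 subunits of the fast glutamate channel. *Gria1* had the lowest mean of them at -0.22 ± 0.11 (SE, n = 4; limma adjusted p = 0.396), from -0.50 and 0.11 on the Cy3 arrays and -0.20 and -0.30 on the Cy5 arrays. Replicate c thus lay opposite to the rest, and the fit without replicate a gave -0.07. With an array left out the fit keeps the dye term, so the lone array of an orientation counts as much as the other 2 together. *Gria2*, whose subunit makes the channel impermeable to calcium, had ratios of -0.41 and -0.04 on the Cy3 arrays and -0.07 and 0.21 on the Cy5 arrays. The median over the class was -0.09. This median rested on replicate a, where it was -0.42, against 0.06 in replicate c, 0.00 in b and -0.11 in d.

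All 7 NMDA genes had mean ratios below 0, from -0.17 to -0.02, with a class median of -0.06. In 3 of them, *Grin1*, *Grin2a* and *Grin3a*, the sign changed with the dye, so these means are balances of opposite values. *Grin2a* had 0.10 and 0.03 in Cy3 and -0.17 and -0.13 in Cy5. *Grin2b*, which encodes the GluN2B subunit typical of embryonic neurons, was the lowest. Its ratios were -0.36 and -0.15 on the Cy3 arrays and 0.01 and -0.18 on the Cy5 arrays, a mean of -0.17 ± 0.06 (SE, n = 4; limma adjusted p = 0.246), or -0.09 with the median spot signal. The 5 probes of *Grin2b* averaged between -0.17 and 0.04, with 1 of them above 0. *Grin2d*, for another subunit of the developing brain, averaged -0.12 and was below 0 on every array, but the fit without replicate a gave -0.04. *Grin1*, the obligatory subunit, averaged -0.10 but its sign changed with the dye (-0.19 and -0.44 in Cy3, 0.16 and 0.08 in Cy5). *Grin3b*, the only other NMDA gene below 0 on every array, spanned just -0.06 to -0.05. Over the 16 ionotropic glutamate genes, 13 means were negative (9677 of all 18322 named genes were) and the median was -0.06. At an unadjusted p under 0.05, 2 of the 16 were lower and 1 was higher, beside 10.4% and 7.90% of all named genes.

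The 7 metabotropic glutamate genes had a median of 0.03, with 5 means above 0. *Grm5*, the group I receptor coupled to phospholipase C and the only one of its group measured, had ratios of -0.53 and 0.13 on the Cy3 arrays and 0.13 and 0.01 on the Cy5 arrays. Its negative mean of -0.06 came from replicate a alone. *Grm3* of group II, which lowers cyclic AMP, had the highest mean of the family at 0.09 ± 0.05 (SE, n = 4). *Grm4* of group III, a presynaptic receptor, had the lowest at -0.14 ± 0.06 (SE, n = 4), with ratios of -0.16 and -0.46 in Cy3 and -0.06 and 0.12 in Cy5. Its limma adjusted p was 0.367.

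The 15 GABA-A genes had means from -0.09 to 0.09 and a median of -0.02, against a range of -0.35 to 0.20 for the 23 glutamate receptor genes. *Gabra2*, an alpha subunit of embryonic neurons, had ratios of -0.08 and 0.15 on the Cy3 arrays and 0.14 and 0.16 on the Cy5 arrays. Replicate a was the only array below 0. *Gabrb1*, a beta subunit, had -0.28 and -0.17 in Cy3 and 0.02 and 0.05 in Cy5, a mean of -0.09 ± 0.03 (SE, n = 4; limma adjusted p = 0.289), and its sign followed the dye. *Gabrb2*, another beta subunit, averaged 0.09 and *Gabre*, the epsilon subunit, 0.09. By its brightest probe, no GABA-A gene was lower or higher on all 4 arrays. A lesser probe of *Gabra2* was lower on all 4 (mean -0.30), and a lesser probe of *Gabrb2* was higher on all 4 (mean 0.14). The GABA-A genes that neighbour each other on chromosome 5 had means of either sign: *Gabra2* averaged 0.09, *Gabra4* 0.00, *Gabrb1* -0.09 and *Gabrg1* -0.07.

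The GABA-B receptor is an obligatory pair of GABBR1 and GABBR2, and both genes gave the same pattern. *Gabbr1* had ratios of -0.54 and -0.23 on the Cy3 arrays and 0.13 and -0.05 on the Cy5 arrays, a mean of -0.17 ± 0.07 (SE, n = 4). *Gabbr2* had -0.36 and -0.34 in Cy3 and 0.13 and 0.07 in Cy5, a mean of -0.12 ± 0.03 (SE, n = 4). The limma adjusted p was 0.297 for *Gabbr1* and 0.171 for *Gabbr2*. The 3 probes of each gene all averaged below 0, from -0.17 to -0.08 for *Gabbr1* and from -0.12 to -0.05 for *Gabbr2*. The lesser probes of *Gabbr2* were close to background, so their ratios say little. In dr/dr they were above it on 2 and 0 arrays, and in the wild-type pool on 2 and 2. The brightest probe of *Gabbr2* was thus lower on the Cy3 arrays only and that of *Gabbr1* chiefly there, whereas the other 2 probes of *Gabbr1* lay below 0 on all 4 arrays, between -0.18 and -0.02.

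Apart from *Glrb* and *Glra2*, the glycine receptor genes were at or near background. *Glra2*, the alpha subunit of the embryonic receptor, was above background on every array and averaged -0.00 ± 0.10 (SE, n = 4), with ratios of -0.21 and -0.07 in Cy3 and -0.15 and 0.42 in Cy5. *Glra1*, *Glra3* and *Glra4* averaged -0.00, 0.01 and 0.01, and for spots this close to background a ratio says little about RNA levels.

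Of the 11 neuronal nicotinic genes, *Chrnb2* had the lowest mean. It encodes the beta2 subunit that pairs with alpha4 in the most common nicotinic receptor of the brain. Its ratios were -0.09 and -0.65 on the Cy3 arrays and -0.26 and -0.12 on the Cy5 arrays, all below 0 but far apart. The mean was -0.28 ± 0.10 (SE, n = 4; limma adjusted p = 0.271), and the fit without replicate c gave -0.14. *Chrna4* itself averaged -0.06 and ranged from -0.54 to 0.27. *Chrna3*, a ganglionic subunit, lay below 0 on every array (-0.03 and -0.14 in Cy3, -0.21 and -0.10 in Cy5), with a mean of -0.12 ± 0.04 (SE, n = 4; limma adjusted p = 0.24). Its neighbour *Chrna5* averaged 0.03. *Chrna6* and *Chrnb3*, which encode subunits characteristic of dopaminergic neurons, averaged -0.00 and 0.01. The sign of *Chrna6* followed the dye, and the signal of *Chrnb3* was at its lowest only 1.3 times the local background in either genotype. The class median was -0.00.

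The 5 subunits of the muscle nicotinic receptor, the receptor of the neuromuscular junction, were all above background in both genotypes. *Chrng*, encoding the embryonic gamma subunit, had ratios below 0 on all arrays: -0.16 and -0.13 on the Cy3 arrays and -0.08 and -0.15 on the Cy5 arrays, a mean of -0.13 ± 0.03 (SE, n = 4; limma adjusted p = 0.163). Its second probe averaged -0.01, with signs that followed the dye, and with the median spot signal the ratio of *Chrng* was -0.07. Its neighbour *Chrnd* averaged 0.07. *Chrna1*, *Chrnb1* and *Chrne* averaged -0.06, -0.01 and -0.06. Skeletal muscle genes were measured beside them. Of 12 such markers, 11 were above background in both genotypes on all arrays, and *Myf5* was above it on 0 arrays in either genotype. The median ratio of the 12 was -0.01, and none had an unadjusted p under 0.05. The summed signal of the 12 ranged from 678 to 1983 in dr/dr and from 648 to 2472 in the wild-type pool. The part of muscle tissue in the muscle receptor signals was not tested.

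Among the muscarinic genes, *Chrm1*, a receptor that activates phospholipase C, was lower on all 4 arrays. Its ratios were -0.37 and -0.16 on the Cy3 arrays and -0.15 and -0.09 on the Cy5 arrays, a mean of -0.19 ± 0.05 (SE, n = 4; limma adjusted p = 0.159), or -0.11 with the median spot signal. *Chrm3* and *Chrm5*, which couple to the same pathway, averaged 0.02 and 0.04. *Chrm2* and *Chrm4*, which inhibit adenylyl cyclase, averaged -0.02 and 0.08. *Chrm4* had values as far apart as -0.36 in replicate a and 0.46 in replicate b.

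**Figure D2:**
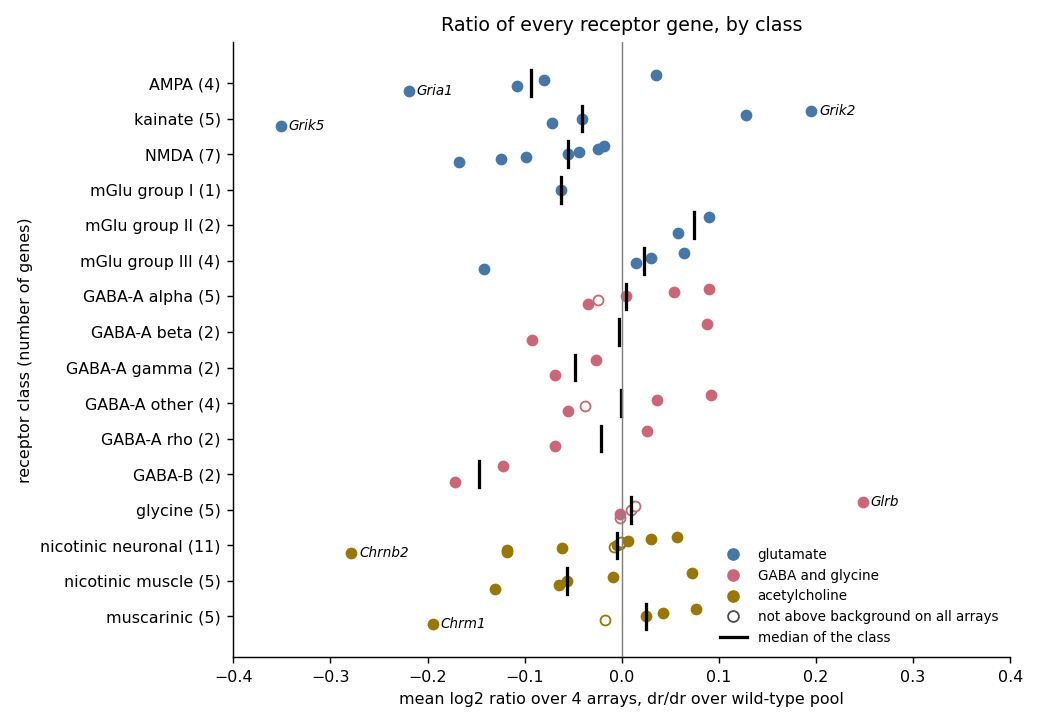
Mean log2 ratio of dr/dr over the wild-type pool (horizontal axis) of each of the 66 receptor genes, 1 row per class; black bars are class medians and open circles are genes not above background on all arrays. All 7 NMDA genes lie below 0, though in 3 of them the sign changes with the dye. Class medians lie between -0.15 (GABA-B) and 0.07 (mGlu group II), and *Grik5* and *Glrb* are the outermost genes.

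Set side by side, the median log2 ratio was -0.06 for ionotropic glutamate genes, 0.03 for metabotropic glutamate genes, -0.00 for GABA and glycine genes and -0.01 for acetylcholine genes. Over the 52 ionotropic genes it was -0.02 and over the 14 metabotropic genes 0.02. These are descriptions, since the classes share arrays and their members are no replicates. The single arrays also differed. Below 0 were 49 of 66 receptor genes in replicate a, 38 in c, 34 in b and 27 in d. The medians of the receptor genes were -0.07, -0.01, -0.00 and 0.02 in the same replicates, against -0.02, -0.02, 0.01 and 0.00 over all named genes.

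The dye orientation moved with many of the receptor ratios. For each probe the fit gives an orientation term, which is the mean ratio of the Cy5 arrays minus that of the Cy3 arrays, divided by 2. This term was larger in size than the genotype ratio in 33 of 66 receptor genes (50%, against 61% of all named genes). Ratios of opposite sign in the 2 orientations, each on both arrays, were found in 15 receptor genes (22.7%, against 33.4% of all named genes). The most extreme case was *Grin3a*, which encodes the GluN3A subunit found mainly in the young brain. Its probe of highest intensity had ratios of 1.36 and 0.89 on the Cy3 arrays and -1.04 and -1.30 on the Cy5 arrays, so that the mean was -0.02 and the orientation term -1.15. The other 3 probes of *Grin3a* had no such swing, and averaged between -0.09 and -0.01. Orientation terms over 0.4 in size occurred in 4 of 141 receptor probes (2.84%, against 2.18% of all probes). Besides *Grin3a* and *Grik2*, these were 1 probe of *Gria3* (0.88 and 1.03 in Cy3, -0.57 and -0.997 in Cy5) and 1 probe of *Gria4* (0.58 and 0.84 in Cy3, -0.48 and -0.72 in Cy5). In all 4 the ratio was higher when the mutant RNA carried Cy3.

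**Figure D3:**
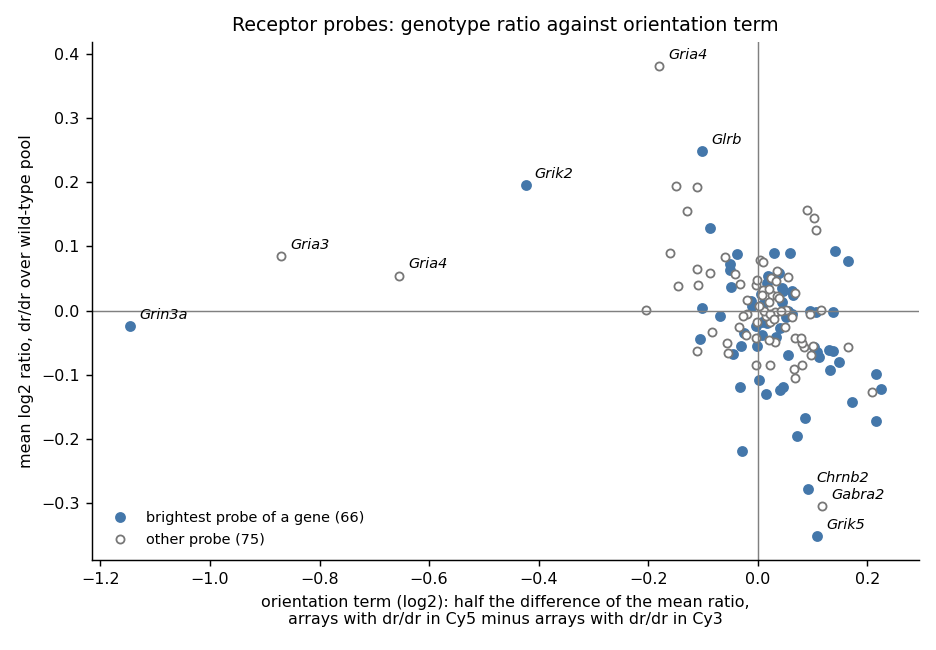
Mean log2 ratio of dr/dr over the wild-type pool (vertical axis) against the orientation term on the log2 scale (horizontal axis) for the 141 probes of receptor genes; filled circles are the 66 probes that stand for a gene. The 4 probes at the far left have orientation terms between -1.15 and -0.42 and genotype ratios between -0.02 and 0.20.

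Where a gene had several probes, they often differed. Of 66 receptor genes, 26 had 1 probe and 40 had several. In 27 genes at least 2 probes were above background in both genotypes on all arrays. These probes shared a sign in 17 genes and did not in 10. *Gria4* had 8 probes, the most of any receptor gene. Its probe of highest intensity averaged -0.11, with -0.43 and 0.21 in Cy3 and 0.08 and -0.29 in Cy5, whereas the other 7 averaged above 0. The third in intensity was above 0 on every array, with a mean of 0.38 and a limma adjusted p of 0.139, the highest mean of all 141 probes. *Gabra2* showed the reverse. Its brightest probe averaged 0.09, while the next was below 0 on all 4 arrays (-0.44 and -0.41 in Cy3, -0.17 and -0.20 in Cy5), with a mean of -0.30 and a limma adjusted p of 0.097. This probe was called with the intensity trend (limma adjusted p = 0.021) and with the median spot signal (limma adjusted p = 0.0092). The median spot signal also called a lesser probe each of *Gria4*, *Gria2* and *Grm3*, all higher in dr/dr (limma adjusted p of 0.027, 0.036 and 0.037). The 5 probes of *Gria2* averaged between -0.08 and 0.19, and the 2 probes of *Grm3* 0.09 and 0.16. Which transcripts each probe detects was not analysed here.

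**Figure D4:**
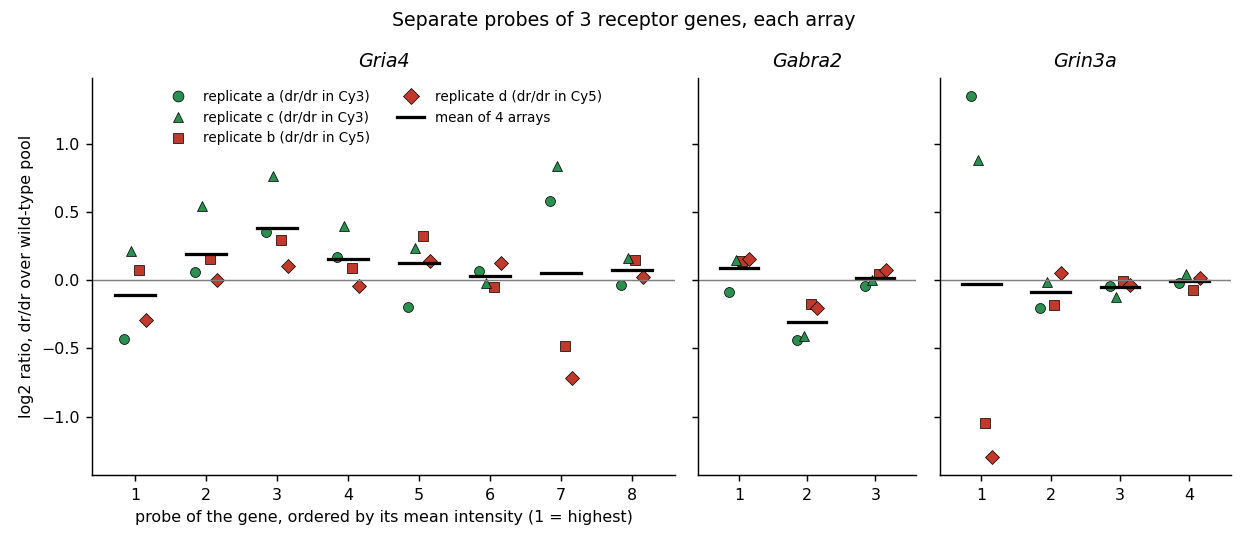
Log2 ratio of dr/dr over the wild-type pool (vertical axis) on each array for every probe of *Gria4*, *Gabra2* and *Grin3a*, ordered along the horizontal axis by mean intensity; green symbols are Cy3 arrays, red symbols Cy5 arrays, bars are means. The first probe of *Grin3a* separates by dye, and the second probe of *Gabra2* lies below 0 on all arrays.

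A spot was taken as above background in a channel if its mean signal exceeded the mean local background by more than 2 SD of the background pixels. By this rule 58 of 66 receptor genes were above background in both genotypes on all 4 arrays (87.9%, against 86.0% of all named genes). In dr/dr 61 genes passed on all arrays (92.4%, against 88.8% of all named genes), and in the wild-type pool 58 (87.9%, against 86.5%). All 23 glutamate receptor genes passed in both. Of the other classes, 13 of 15 GABA-A genes, 2 of 2 GABA-B, 2 of 5 glycine, 14 of 16 nicotinic and 4 of 5 muscarinic genes passed. Those that did not were *Gabra6*, *Gabrq*, *Glra1*, *Glra3*, *Glra4*, *Chrna9*, *Chrnb4* and *Chrm2*, and each was above background on at least 2 of 4 arrays in each genotype.

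*Gabrq*, *Glra1* and *Chrm2* passed on all arrays in dr/dr and on 3, 2 and 2 arrays in the wild-type pool. Their mean ratios were -0.04, -0.00 and -0.02, none with an unadjusted p under 0.05. Genes that passed on all arrays in dr/dr but not in the wild-type pool were 4.55% of receptor genes, against 2.87% of all named genes. The reverse was found in 0% of receptor genes, against 0.546% of all named genes. The dye moved with this difference in detection. In the Cy5 channel, all 66 receptor genes were above background on every array, for dr/dr (b and d) as for the wild-type pool (a and c). In the Cy3 channel, 66 and 61 were above background for dr/dr (a and c), against 59 and 59 for the wild-type pool (b and d). The median spot signal over all probes was 73.4 to 84.7 in the Cy3 channel and 137 to 144 in Cy5 for dr/dr, against 70 to 72.7 in Cy3 and 141 to 174 in Cy5 for the wild-type pool. With a limit of 3 SD, 47 receptor genes remained above background, and the 11 that no longer passed included *Grin3b*, *Chrna3*, *Gabrb1*, *Gabrg1* and *Chrm5*.

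**Figure D5:**
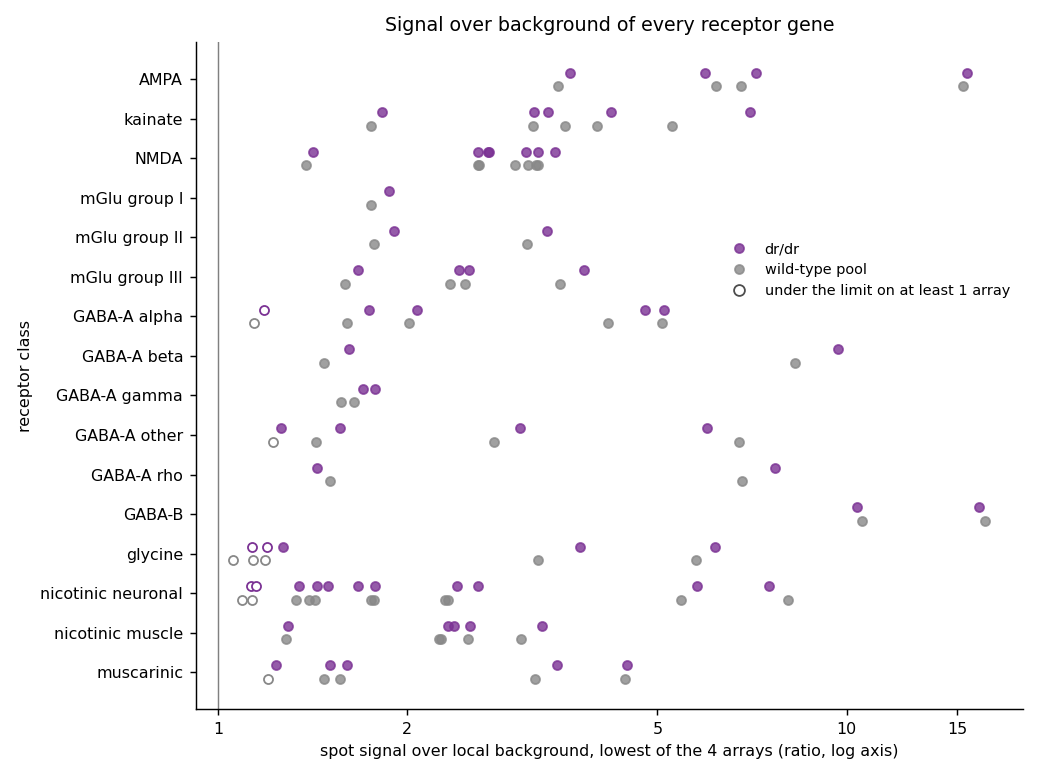
Mean spot signal over mean local background (horizontal axis, log scale), lowest of the 4 arrays, for the 66 receptor genes by class; purple circles are dr/dr, grey circles the wild-type pool, open circles genes under the limit on at least 1 array. The open circles, most of them in the glycine and neuronal nicotinic classes, lie below 1.3 in both genotypes.

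The proteins that accompany these receptors, and the enzymes and carriers of their transmitters, were counted by the same fit. Of 31 receptor-associated genes measured, neither test called any, and 8 were lower and 4 higher at an unadjusted p under 0.05 (10.4% and 7.90% of all named genes were), with a median ratio of -0.02. *Cnih2*, a cornichon protein of AMPA receptors, had -0.59 and -0.42 on the Cy3 arrays and -0.12 and -0.28 on the Cy5 arrays, a mean of -0.35 (limma adjusted p = 0.106). *Cacng4*, a TARP, averaged -0.15 and was below 0 on every array. *Dlg4*, encoding the NMDA receptor scaffold PSD-95, averaged -0.31, but its relatives *Dlg1*, *Dlg2* and *Dlg3* averaged 0.12, -0.06 and 0.06. *Nlgn2*, a neuroligin of inhibitory synapses, averaged -0.30, beside 0.04 for the anchoring protein *Gphn* and 0.16 for the trafficking protein *Gabarap*. *Ly6h*, which binds nicotinic receptors, averaged -0.35 and was also below 0 on all arrays. *Homer1*, a scaffold of group I mGlu receptors, was above 0 on all arrays, with a mean of 0.30 (limma adjusted p = 0.135), while *Homer2* and *Homer3* averaged -0.15 and -0.21. The signs of *Homer2*, *Dlg1* and *Dlg3* followed the dye on all 4 arrays, so their means are balances of opposite values. *Neto2*, an auxiliary kainate receptor subunit, averaged 0.10.

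Of 10 transmitter genes measured, none had an unadjusted p under 0.05, and their median was 0.00. *Slc17a6*, the vesicular glutamate transporter of the midbrain, averaged 0.07. *Gad1* and *Gad2*, which make GABA, averaged 0.14 and -0.02, and the mean of *Gad1* came from 0.56 in replicate c, beside -0.03, 0.00 and 0.02 on the other arrays. *Chat*, which makes acetylcholine, averaged -0.10. Markers of neurons (10 of 10 above background) had a median of 0.07, within a range of -0.35 for *Tubb3* to 0.19 for *Elavl4*. Both of these means came from the Cy3 arrays. *Tubb3* had -0.85 and -0.75 in Cy3 but 0.06 and 0.16 in Cy5, and *Elavl4* had 0.40 and 0.47 in Cy3 but 0.02 and -0.12 in Cy5. Markers of radial glia and progenitors (8 of 8 above background) had a median of 0.07. The summed signal of the neuronal markers ranged from 13020 to 45630 in dr/dr and from 11600 to 49010 in the wild-type pool. The part of cell composition in the receptor ratios was not tested.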

How the data were processed

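The authors deposited raw spot and local background intensity for each channel of each array (quantified with ImaGene, not background-subtracted) and a table of log2 ratios, which the authors normalized with a loess curve per print-tip. Channel 1 is Cy5 and channel 2 Cy3. Here log2 ratios were computed from the mean intensity of 45220 spots, without background subtraction, with 1 loess curve per array (span 0.3, 4 iterations; limma 3.58.1, R 4.3.3), where 4046 control spots had weight 0. The other 41174 probes were tested with lmFit and eBayes and a dye term, with Benjamini-Hochberg adjustment over all of them. Each of the standard errors is from this fit and leaves out the orientation term. The permutation F2 test (5000 global shuffles of residuals) used Python 3.11.15 (numpy 2.4.6, pandas 2.3.3). Both tests compare 4 ratios with 0 after the orientation term is taken out. Their p-values measure the spread between the 2 mutant pools that share an orientation, with variances shrunk toward those of all probes. The spread between the orientations is not part of them. Without a dye term, the limma adjusted p of *Grik2* was 0.94. In simulated data with 100 probes changed by each size, limma called 92 at a log2 change of 1 and 68 at 0.5, and 6 of 40974 unchanged probes. The simulated noise was drawn independently for each probe and array. These counts are no measure of power on the real arrays, where limma called 0 of 41174 probes, those of *Th* and *Nr4a2* included. The array annotation names 1 gene for 34186 probes and none for 6988. All 66 receptor symbols are current in the RefSeq table. The receptor genes and gene lists were chosen with earlier results of these data known. Named with values are, for each class, the gene of the brightest probe and the one of the largest ratio, the 12 smallest p, any called gene, and genes with 1 detected probe above 0.2 and another below -0.2 (0 genes). *Grin3a*, *Gria4* and others outside this rule were picked after their values were seen. Promoter letters are from RefSeq. The number of arrays limits the precision.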

Additional observations from a re-analysis of the deposited data

Results flagged for a closer look

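In 1 of 66 receptor genes, an array stood apart from the other 3 by Dixon's criterion for 4 values, where chance alone gives about 1 in 20 groups. *Gabra2* had a log2 ratio of -0.08 in replicate a, against 0.14 to 0.16 on the other arrays.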

How the results depend on the processing

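Neither receptor genes nor probes overall were called by limma in the fit reported, and this held for both under normexp correction, without a dye term, with the authors' table and with each array left out in turn (0 to 0). Overall calls were 167 with median centring (113 lower), 52 without dim probes (37), 399 with an intensity trend (236), 3051 with the median spot signal (1596), 249 at an adjusted p under 0.10 (163) and 110 by the permutation F2 test (75). Of receptor genes, 0 were called with median centring, without dim probes and by the F2 test. The trend called 1 (*Grik5*, limma adjusted p = 0.038) and so did the adjusted p under 0.10. The median spot signal called 4, with limma adjusted p-values of 0.0072 for *Grik5*, 0.012 for *Chrnb2*, 0.028 for *Glrb* and 0.032 for *Grik2*. The cause was not tested. Over the alternatives with such a value, the ratio of *Grik5* kept its sign.

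Means near 0 turned. Averaged over all probes, *Gabra2* was at -0.065, *Gria2* at 0.029 and *Grm5* at 0.00077. With the median spot signal *Gabrp* was at 0.0093, with median centring *Grm7* at -0.00498 and *Glra2* at 0.018, and with normexp *Glra2* at 0.0039. With 1 array left out, ratios from the fit with the dye term ranged from -0.123 to 0.012 for *Gabrp*, -0.173 to 0.014 for *Gria2*, -0.131 to 0.018 for *Chrne*, -0.228 to 0.103 for *Grm5*, -0.059 to 0.112 for *Gabrr1*, -0.048 to 0.078 for *Grm7* and -0.143 to 0.139 for *Glra2*. *Gria2*, *Chrne* and *Grm5* turned without replicate a, *Gabrp* without d. The glycine median was 0.12 over its detected members only, which are *Glra2* and *Glrb*. Detected receptor genes numbered 47 with 3 SD, 58 with median signals, 60 on at least 3 arrays and 61 with a control spot's 95th percentile as limit, chosen after seeing the data. A slide block and named negative controls could not be used, since the files give neither. No paired analysis was possible because all arrays belong to 1 group.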
